A study of Mus musculus with 6 samples.

Results

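The 9 genes described here carry heme through its synthesis and its breakdown. They are Alas1, Alad, Uros, Urod, Cpox, Ppox and Fech of the synthesis chain, and Hmox1 and Blvrb of the breakdown chain. They were chosen by name from the 24404 genes of the deposited table, and all 9 were found. The libraries are RNA-seq of biliary epithelial cells, the cells lining the bile ducts within the liver, labelled as intrahepatic bile duct of adult C57BL/6 mice. There were 3 Klf5 LKO libraries, with the genotype Alfp-CreTg/+;Klf5flox/flox, and 3 control libraries, with the genotype Alfp-Cre+/+;Klf5flox/flox, which is read here as floxed Klf5 and no Cre transgene. Alfp-Cre is driven by albumin and alpha-fetoprotein regulatory sequence and acts in the epithelial lineage of the liver, hepatocytes as well as bile duct cells. Mice of both groups had 1 week of DDC, so the comparison is between genotypes within injured ducts, and no uninjured library was analysed here. The Cre transgene was present in Klf5 LKO alone, so its own effect and the loss of Klf5 cannot be told apart. The labels do not state that the libraries of a group were separate animals, so every p-value measures the spread between these libraries.

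Heme is an iron porphyrin that serves as the cofactor of cytochromes, catalase and cytochrome P450 enzymes. Its synthesis starts and ends in the mitochondrion, with the middle steps in the cytosol, and Alas1 is the rate-limiting enzyme outside the red cell lineage. DDC, 3,5-diethoxycarbonyl-1,4-dihydrocollidine, gives rise to an N-alkylated porphyrin that inhibits ferrochelatase, the product of Fech, and protoporphyrin then builds up and forms plugs in bile ducts. In breakdown, heme oxygenase 1, encoded by the stress-inducible Hmox1, opens the ring to biliverdin, and biliverdin reductases reduce biliverdin to bilirubin. Blvra encodes the reductase of the main bilirubin route, and Blvrb encodes another biliverdin reductase.

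The promoter windows of 4 synthesis genes are shown: Alas1 as the rate-limiting step, Alad as the gene with the highest level per length, and Uros and Ppox as the synthesis genes with the lowest and highest log2 fold change. Klf5 belongs to the Krüppel-like factors. Krüppel-like factors bind GC-rich and CACCC sequence, and nuclear respiratory factor 1 is known to act on the Alas1 promoter in rat. Each window runs from 250 bases before to 50 bases after a RefSeq start site on GRCm38.p6, 5′ to 3′ on the gene's own strand. Capitals mark every match, on either strand and with overlaps allowed, to the GC box GGGCGG, the CACCC box CACCC and the NRF1 core GCGCATGC. Where a gene had more than 1 window, the window nearest the GENCODE start is shown.
Alas1, chr9:106247905-106248204, minus strand: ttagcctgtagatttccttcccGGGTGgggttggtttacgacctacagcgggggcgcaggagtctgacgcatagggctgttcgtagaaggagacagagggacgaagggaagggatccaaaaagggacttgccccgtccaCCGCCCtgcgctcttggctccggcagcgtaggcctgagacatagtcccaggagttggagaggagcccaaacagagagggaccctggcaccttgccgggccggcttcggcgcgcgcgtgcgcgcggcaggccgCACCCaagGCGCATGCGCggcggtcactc
Alad, chr4:62519860-62520159, minus strand: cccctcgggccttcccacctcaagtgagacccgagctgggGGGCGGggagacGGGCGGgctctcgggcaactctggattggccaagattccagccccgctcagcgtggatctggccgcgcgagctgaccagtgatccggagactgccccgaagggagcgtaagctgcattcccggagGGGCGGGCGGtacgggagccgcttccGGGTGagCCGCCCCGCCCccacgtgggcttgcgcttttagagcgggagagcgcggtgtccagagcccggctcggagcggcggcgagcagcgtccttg
Uros, chr7:133709246-133709545, minus strand: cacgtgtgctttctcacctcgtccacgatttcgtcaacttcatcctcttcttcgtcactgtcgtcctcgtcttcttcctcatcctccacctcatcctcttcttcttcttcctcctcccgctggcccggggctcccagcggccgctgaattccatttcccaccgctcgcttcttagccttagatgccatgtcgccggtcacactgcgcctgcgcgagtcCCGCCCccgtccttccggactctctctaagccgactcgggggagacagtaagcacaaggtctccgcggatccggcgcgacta
Ppox, chr1:171281137-171281436, minus strand: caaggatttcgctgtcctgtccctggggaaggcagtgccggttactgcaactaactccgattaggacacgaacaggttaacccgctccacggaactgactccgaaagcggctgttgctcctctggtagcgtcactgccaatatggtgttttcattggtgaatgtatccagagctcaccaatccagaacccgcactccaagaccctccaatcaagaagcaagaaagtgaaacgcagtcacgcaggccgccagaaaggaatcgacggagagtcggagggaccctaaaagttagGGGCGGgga
RefSeq windows were matched by symbol for 7 of the 9 genes, 11 windows in all. The GC box was in 7 of the 11 windows, against 35.7% of all 32851 windows of this length. The CACCC box was also in 7 of the 11, against 57.5% of all windows. The NRF1 core was in 2 of the 11, both of Alas1, against 2.71% of all windows. The pair of Alas1 windows overlap and hold the same NRF1 stretch, and the pair of Alad windows overlap and share 2 GC boxes, so these counts are of windows and not of separate sites. The Alad window held 6 GC boxes, and the Uros and Ppox windows 1 each, that of Ppox after its start site. These matches describe the letters and are not binding sites.

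Reads assigned to genes ran from 17161087 to 24784167 in Klf5 LKO, against 11726934 to 20066745 in control, and values are normalised read counts, that is, reads divided by 1 size factor per library. Klf5 itself had 977, 1192 and 1183 in the Klf5 LKO libraries, against 2056, 2018 and 2316 in the control libraries; here and below, values are in the order of replicates 1, 2 and 3. Its log2 fold change was -0.93 (SE 0.14) with an adjusted p of 0.0103. The labels do not say which exons the floxed allele loses, so the remaining exons may still give reads. The call on Klf5 ended when control 1, 2 or 3 was left out (adjusted p = 0.0625, 0.0681 and 0.0540). The duct markers Epcam and Spp1 were abundant in every library, at 23402 or more and 288036 or more. The biliary list summed to 364901 to 438574 in Klf5 LKO, against 423811 to 538733 in control. The endothelial and stellate cell list of 10 genes, 4 of them at 0 in all libraries, summed to 87.9 to 111 in Klf5 LKO, against 60.1 to 338 in control. The hepatocyte list of 12 genes summed to 8790 to 12866 in Klf5 LKO, against 9426 to 12945 in control, mostly albumin and transthyretin reads. Of its 7 testable genes, 1 fell (Apob, adjusted p = 0.0322) and 0 rose, where 0.652% of all tested genes were called in either direction. By fitted value, 5 of the 7 were higher in Klf5 LKO and 2 lower (median log2 fold change 0.089).

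None of the 9 heme genes passed the threshold between Klf5 LKO and control. In the limma fit across 13490 genes, with an adjusted p under 0.05 as the threshold, 0 of the 9 were called, where 0.652% of all tested genes were. By DESeq2 on the recovered reads 0 of the 9 were called as well, where 2.48% of the genes with an adjusted p were, and by edgeR and voom 0. At an unadjusted p under 0.05 there was 1 of the 9 with each of limma, edgeR, DESeq2 and voom, where limma placed 10.9% of all tested genes there. The values of the groups did not overlap for 2 of the 9, Hmox1 and Uros, against 15.6% of all tested genes. The median log2 fold change of the 9 was -0.048, beside -0.0052 over all tested genes, with 3 above 0 and 6 below. In the authors' deposited table the adjusted p of the 9 runs from 0.0974 (Hmox1) to 0.970 (Blvrb). All 9 passed the filter on low values, and the lowest library of the lowest gene, Uros, held 146 reads. Fewer cells of a type and less RNA per cell cannot be told apart in such bulk values.

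**Figure D1:**
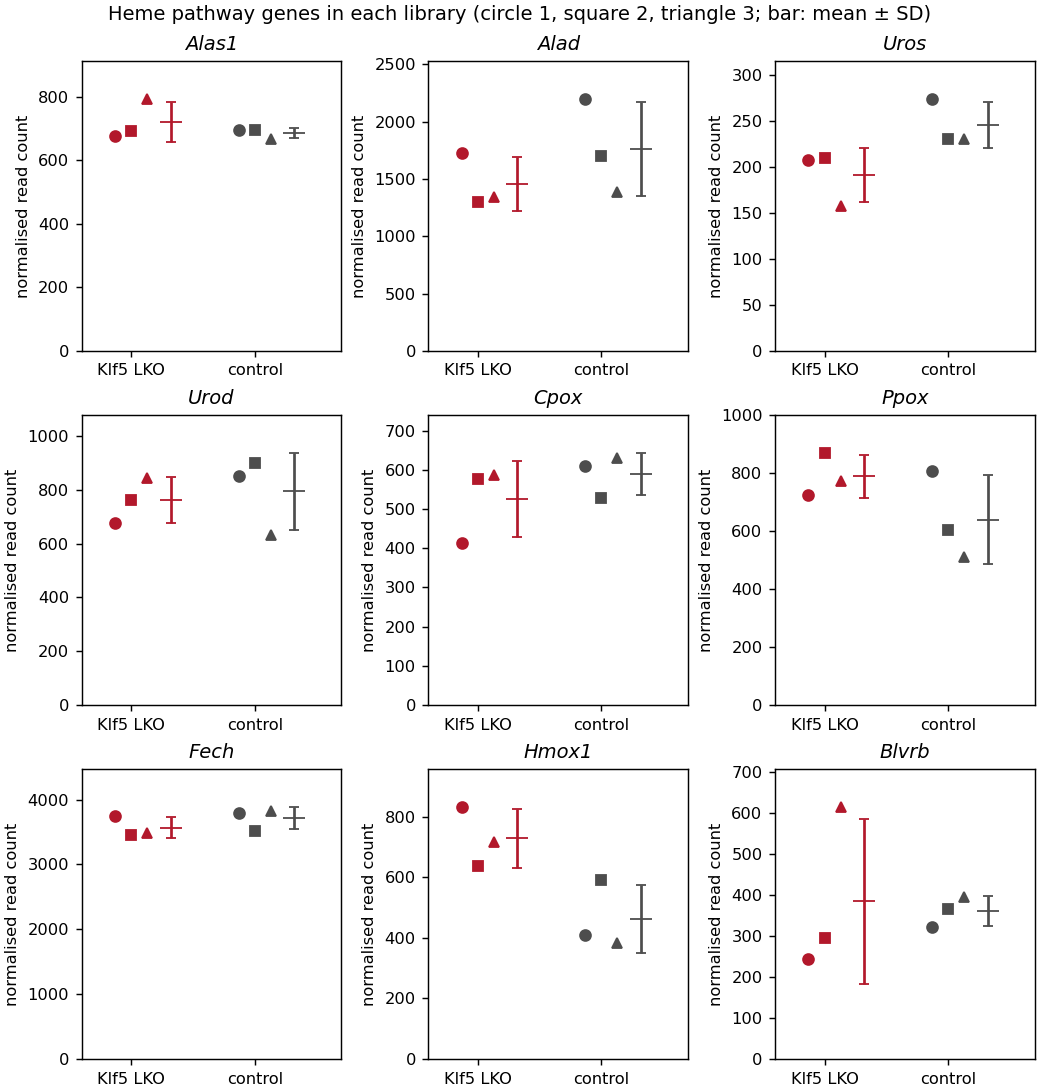
Normalised read counts of the 9 heme genes in each of the 3 Klf5 LKO (left, red) and 3 control (right, grey) libraries, with the mean and SD beside the points and each axis starting at 0. Hmox1 in Klf5 LKO lay at 638 or above and in control at 589.5 or below, while Fech ranged from 3455 to 3825 over all 6 libraries.

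Alas1 (chromosome 9, 106233455 to 106248654, minus strand, mm10), which joins glycine and succinyl-CoA at the start of the chain, did not pass the threshold. It had 675, 693 and 793 normalised read counts in Klf5 LKO, against 696, 695 and 668 in control. Klf5 LKO library 3 was the highest of the 6 and the groups overlapped. Its log2 fold change was 0.067 (SE 0.16, adjusted p = 0.916), and the 95% confidence interval ran from -0.27 to 0.41, or a ratio of 0.827 to 1.33. Among these 9 genes Alas1 and Fech varied least over the 6 libraries, with a coefficient of variation of 6.47% and 4.69%.

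Alad (chromosome 4, 62509169 to 62519918, minus strand), whose product condenses aminolevulinic acid to porphobilinogen, had a lower mean in Klf5 LKO. Its normalised read counts were 1727, 1295 and 1346 in Klf5 LKO, against 2198, 1702 and 1386 in control. Control 1 was the highest library, and control 3 lay below Klf5 LKO 1. The difference of -0.26 on the log2 scale (SE 0.18, adjusted p = 0.655) had an interval of -0.66 to 0.14, and without control 1 it was -0.089.

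Uros (chromosome 7, 133686243 to 133710072, minus strand), which closes the tetrapyrrole ring as uroporphyrinogen III, had the lowest counts of the 9. It had 207, 209 and 158 in Klf5 LKO, against 274, 231 and 231 in control. Every Klf5 LKO library lay below every control library. On the log2 scale the difference of -0.36 (SE 0.25, adjusted p = 0.648) had an interval of -0.90 to 0.18, which includes 0, and without Klf5 LKO 3 it was -0.23.

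The next enzymes in the cytosol and on the way back into the mitochondrion showed no common direction. Urod (chromosome 4, 116989965 to 116994413, minus strand), the uroporphyrinogen decarboxylase, had 679, 763 and 846 in Klf5 LKO, against 852, 901 and 632 in control. Its groups overlapped fully, with both the highest and the lowest library in control (log2 fold change -0.048, SE 0.18, adjusted p = 0.951, interval -0.44 to 0.35). Its sign turned when Klf5 LKO 1, control 1 or control 2 was left out, with 0.033, 0.0098 and 0.050.

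Cpox (chromosome 16, 58670292 to 58717636, plus strand), which oxidises coproporphyrinogen, had 414, 576 and 588 in Klf5 LKO, against 612, 529 and 630 in control. Klf5 LKO 1 was the lowest library, and the others overlapped. Its log2 fold change was -0.18 (SE 0.19, adjusted p = 0.803), with an interval of -0.60 to 0.24, and without Klf5 LKO 1 it was -0.017.

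Ppox (chromosome 1, 171275990 to 171281186, minus strand), which makes the protoporphyrin that Fech uses, had the highest log2 fold change of the synthesis genes. It had 723, 869.7 and 773 in Klf5 LKO, against 807, 602 and 509 in control. Control 1 lay inside the Klf5 LKO range while control 2 and 3 lay below it. The difference of 0.32 on the log2 scale (SE 0.19, adjusted p = 0.595) had an interval of -0.097 to 0.75. It was 0.51 without control 1 and 0.17 without control 3. Of the exonic bases of Ppox, 17.5% (791) are shared with B4galt3 on the other strand, and the labels name no step that keeps the strand. B4galt3, a galactosyltransferase gene, had 1285, 1210 and 1190 in Klf5 LKO, against 1163, 861 and 1326 in control, so how shared reads were divided is uncertain. Alas1 shares 465 exonic bases (7.53%) with a transcript on the other strand and Cpox 204 (3.06%) with Gpr15, which had 0 reads in every library.

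Fech (chromosome 18, 64452914 to 64490251, minus strand), the ferrochelatase gene whose product inserts iron into protoporphyrin and is the enzyme that DDC blocks, had the highest counts of the 9 and the lowest spread. It had 3752, 3455 and 3487 in Klf5 LKO, against 3797, 3512 and 3825 in control. The ranges overlapped, with all 6 libraries within a factor of 1.11 of each other. Between the groups the log2 fold change was -0.058 (SE 0.11, adjusted p = 0.897), with an interval of -0.31 to 0.19, or a ratio of 0.809 to 1.14. It stayed between -0.097 and -0.036 whichever library was left out.

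Hmox1 (chromosome 8, 75093621 to 75100589, plus strand), the heme oxygenase gene, differed most between the groups among the 9. Its normalised read counts were 831, 638 and 715.5 in Klf5 LKO, against 409, 589.5 and 384 in control. Every Klf5 LKO library lay above every control library, with Klf5 LKO 2 and control 2 the nearest pair. The means were 728 ± 97.4 in Klf5 LKO, against 461 ± 112 in control (SD, n = 3 each). That is a difference of 0.68 on the log2 scale (SE 0.21), or 1.60-fold, with a 95% confidence interval of 0.23 to 1.13 for this gene taken alone. It did not pass after adjustment over all tested genes with limma (adjusted p = 0.213), edgeR (0.251), DESeq2 (0.104) or voom (0.190). By its unadjusted limma p (0.00649) it ranked 411 of the 13490 genes. In the authors' deposited table its log2 fold change is 0.52 with an adjusted p of 0.0974. Left out in turn, no library brought it past the threshold, and the log2 fold change ran from 0.56 without control 3 to 0.87 without control 2.

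Macrophages, which break down heme from red cells, were looked for beside Hmox1. The macrophage and Kupffer cell list of 13 genes summed to 1120, 1586 and 1572 in Klf5 LKO, against 1615, 1661 and 1479 in control, and Csf1r, the macrophage colony-stimulating factor receptor, gave most of it. The Kupffer cell genes Clec4f, Vsig4 and Cd5l were at 0 in all 6 libraries. Of the 4 testable genes of the list, 0 passed, and 3 had lower fitted values in Klf5 LKO. For C1qb, 1 of these 3, the mean count was instead higher in Klf5 LKO (12.2, against 10.2 in control). Lyz2 was higher in Klf5 LKO by both. The list of 11 broad leukocyte genes summed to 20879, 8058 and 9465 in Klf5 LKO, against 27447, 15645 and 4934 in control. Most of that sum was Cd74, the MHC class II invariant chain, and 0 of the 7 testable genes passed. All 7 had lower fitted values in Klf5 LKO (median log2 fold change -1.27), where 50.8% of all tested genes did. The groups of each of the 7 overlapped. The part of macrophage or leukocyte RNA in the Hmox1 values was not tested.

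**Figure D2:**
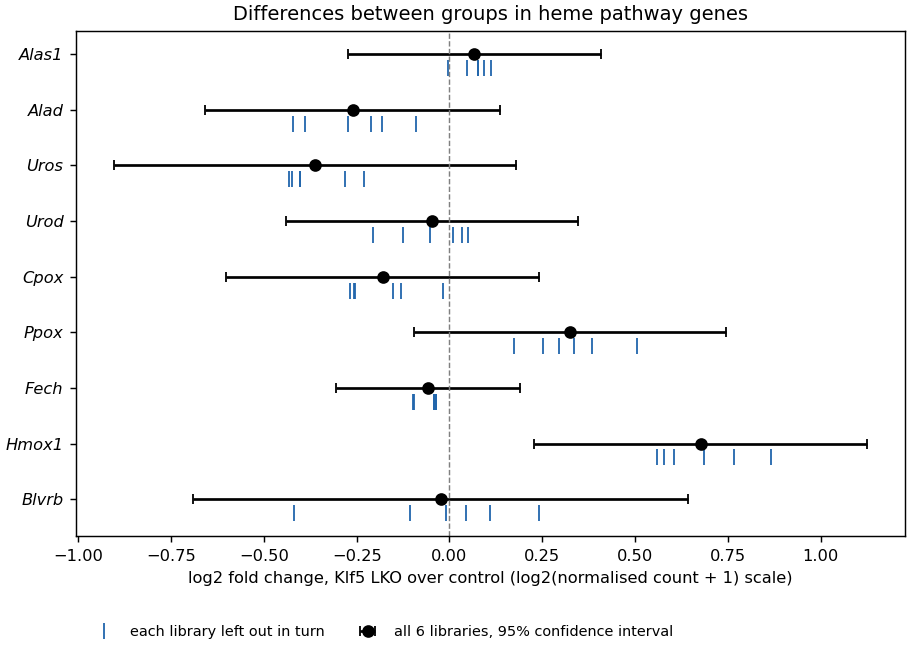
Log2 fold change of Klf5 LKO over control for each gene on the log2(normalised count + 1) scale, as a point with its 95% confidence interval, and below it the value with each of the 6 libraries left out in turn (blue ticks). The interval of Hmox1, 0.23 to 1.13, is the only interval of the 9 that lies off 0, before any adjustment for the number of genes tested.

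Blvrb (chromosome 7, 27447978 to 27466144, plus strand), a biliverdin and flavin reductase that is abundant in red cells, had the widest spread. It had 245, 294 and 614 in Klf5 LKO, against 321, 367 and 395 in control. Klf5 LKO 3 was the highest of the 6 libraries and Klf5 LKO 1 and 2 were the lowest. Its mean count was 385 ± 201 in Klf5 LKO, against 361 ± 37.5 in control (SD, n = 3 each), while its log2 fold change was -0.023 (SE 0.31, adjusted p = 0.985), with an interval of -0.69 to 0.64. Leaving out Klf5 LKO 3 gave -0.42, leaving out Klf5 LKO 1 gave 0.24, and edgeR and DESeq2 gave 0.085 and 0.089. The 10 erythroid genes measured summed to 18.1, 29.8 and 23.4 in Klf5 LKO, against 4.60, 6.32 and 10.2 in control. Of these, Hba-a1, Hba-a2, Hbb-bs, Hbb-bt, Slc4a1 and Gata1 had 0 reads in all 6 libraries. The globin copies are nearly identical to each other, so their reads may have been dropped in counting. Klf1, a red cell transcription factor, had 21, 29 and 4 reads in Klf5 LKO, against 2, 0 and 5 in control. Alas2, the red cell form of the first enzyme, had 0, 9 and 15 reads in Klf5 LKO, against 2, 1 and 4 in control. Klf5 LKO 3 was thus the highest library for both Blvrb and Alas2 but not for Klf1, and the part of red cell RNA in the Blvrb value was not tested.

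**Figure D3:**
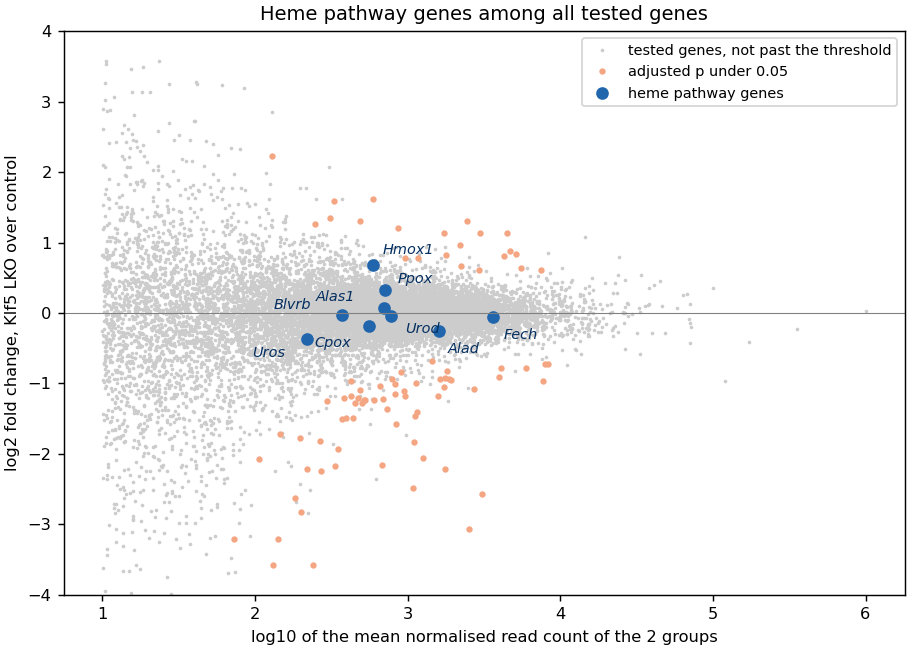
Log2 fold change of Klf5 LKO over control against the log10 of the mean normalised read count for the 13490 tested genes, with genes past the threshold in orange and the 9 heme genes in blue. The heme genes lie between -0.36 (Uros) and 0.68 (Hmox1), and 16 genes outside -4 to 4 are not drawn.

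Levels can be compared between genes only per length, and the annotation behind the authors' counts is not known. Per kilobase of the longest coding transcript in GENCODE M21, Alad was highest, at a mean over the 6 libraries of 1290.3 normalised read counts per kb (1039 to 1762). The next were Fech (554 per kb), Urod (523), Ppox (392), Hmox1 (379) and Blvrb (363), in which each gene's range over the libraries overlapped that of the next. Alas1 (207 per kb), Cpox (180.2) and Uros (124) were lowest, again with neighbours that overlapped. The ranges did not overlap between Alad and Fech or between Blvrb and Alas1. With the union of all annotated exons as the length, Alad stayed the highest and Uros the lowest by mean, while Hmox1 (339.6 per kb) stood before Urod (301) and Fech (263). The high Fech count thus goes with a transcript of 6.57 kb, against 1.25 kb for Alad.

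**Figure D4:**
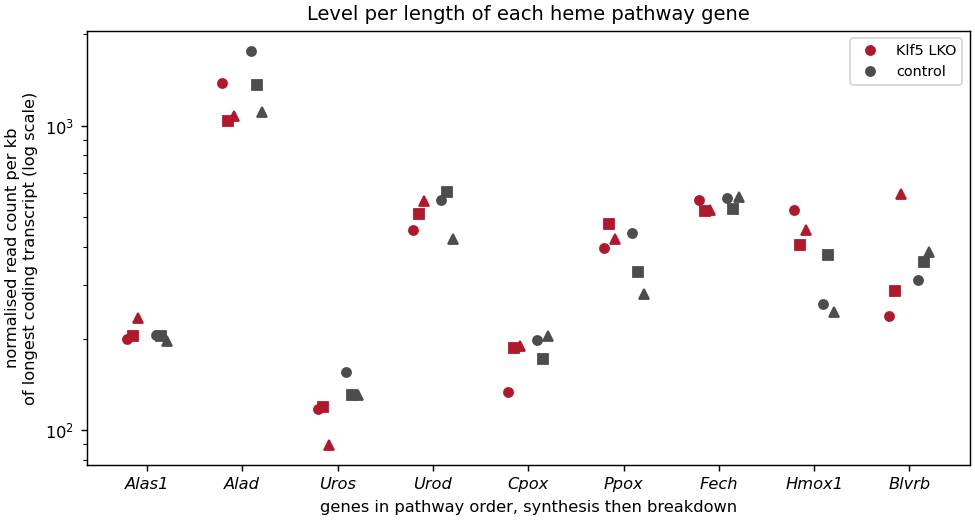
Normalised read count per kilobase of the longest coding transcript, on a log scale, for each gene in pathway order, with Klf5 LKO (red) left of control (grey) and 1 point per library. Alad lies at 1039 or above in all 6 libraries and Uros at 156 or below.

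Ratios of reads within a library do not depend on the size factors. Of 7 ratios computed, 4 did not overlap between the groups, 3 of them with Hmox1 on top. Those 3 reuse the Hmox1 reads, whose groups already lay apart, so they are not separate results. No share over other gene pairs was computed. Hmox1 reads per Hmox2 read, the constitutive heme oxygenase, were 1.14, 0.866 and 0.894 in Klf5 LKO, against 0.493, 0.785 and 0.521 in control. Per Alas1 read, Hmox1 had 1.23, 0.920 and 0.902 reads in Klf5 LKO, against 0.588, 0.848 and 0.575 in control. Hmox1 reads per Fech read were 0.222, 0.185 and 0.205 in Klf5 LKO, against 0.108, 0.168 and 0.100 in control. In all 3 ratios every Klf5 LKO library lay above every control library, with control 2 the nearest control. Of the exonic bases of Hmox2, 40.2% are shared with Cdip1 on the other strand, so the Hmox2 count is uncertain. Uros reads per Ppox read, the synthesis genes with the lowest and highest log2 fold change, were 0.286, 0.241 and 0.204 in Klf5 LKO, against 0.339, 0.383 and 0.453 in control. These genes were paired for that difference, so the gap is a description. Fech reads per Alas1 read were 5.55, 4.98 and 4.40 in Klf5 LKO, against 5.45, 5.05 and 5.73 in control, with overlap.

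**Figure D5:**
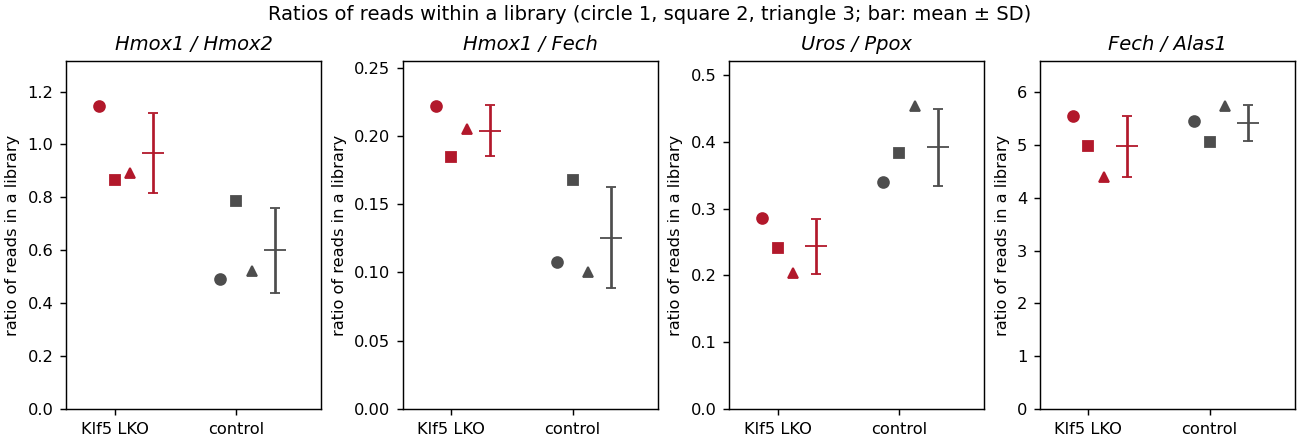
Ratio of the reads of the named genes within each library, with Klf5 LKO (red, left), control (grey, right), the mean and the SD. Hmox1 per Hmox2 averaged 0.968 ± 0.153 in Klf5 LKO, against 0.600 ± 0.161 in control (SD, n = 3 each), and Fech per Alas1 overlapped between the groups.

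Among other enzymes of the chain, neither Hmox2 nor Blvra passed the threshold. Hmox2 had 727, 737 and 801 in Klf5 LKO, against 830, 751 and 738 in control (log2 fold change -0.033, adjusted p = 0.961). Blvra, which encodes the biliverdin reductase of the main bilirubin route, had 725, 569 and 767 in Klf5 LKO, against 547, 639 and 656 in control (log2 fold change 0.15, adjusted p = 0.817).

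Carriers of heme, porphyrin and mitochondrial iron gave 21 testable genes, with 0 risen, 0 fallen and 21 not past the threshold, with a median log2 fold change of 0.0080. The most abundant were Pgrmc1, a heme-binding membrane protein, at 4869 ± 467 in Klf5 LKO, against 4859 ± 400 in control, and Tspo, a mitochondrial outer membrane protein that binds porphyrins, at 4356 ± 285 in Klf5 LKO, against 5023 ± 584 in control (SD, n = 3 each). The groups did not overlap for 4 of the 21, against 15.6% of all tested genes. Abcb10, Tmem14c and Abcb8 were lower in Klf5 LKO and Slc25a28 higher. Abcb10, a transporter of the mitochondrial inner membrane needed for heme synthesis in mouse red cell precursors, was picked out after its values were seen. It had 314, 548 and 560 in Klf5 LKO, against 824, 830 and 825 in control, with no overlap. Its log2 fold change of -0.85 (SE 0.22) did not pass with limma (adjusted p = 0.141), edgeR (0.177) or voom (0.136) and passed with DESeq2 (adjusted p = 0.0317).

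Iron handling gave 24 testable genes, with 0 risen, 0 fallen and 24 not past the threshold, and a median log2 fold change of 0.035. The ferroxidase ceruloplasmin gene Cp had 73780 ± 5002 in Klf5 LKO, against 67364 ± 3350 in control, and the ferritin heavy chain gene Fth1 59855 ± 6821 in Klf5 LKO, against 57228 ± 8312 in control (SD, n = 3 each).

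Among 14 testable regulators of heme synthesis and of Hmox1, 0 rose and 0 fell (median log2 fold change 0.089). Nfe2l2, which encodes NRF2, an activator of Hmox1, had 3416, 4212 and 3449 in Klf5 LKO, against 4670, 4108 and 5802 in control. The groups overlapped through Klf5 LKO 2 and control 2, and Nfe2l2 did not pass (log2 fold change -0.39, SE 0.15, adjusted p = 0.351). The related Nfe2l1 had 4614 ± 476 in Klf5 LKO, against 4301 ± 534 in control (SD, n = 3 each).

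Of 20 NRF2 target genes, 1 fell, 0 rose and 19 stayed short of the threshold (median log2 fold change -0.083). Over all tested genes 0.652% were called, 66 of them lower and 22 higher in Klf5 LKO. The NRF2 target that fell was Gsta4, a glutathione transferase that clears lipid aldehydes. It had 392, 384 and 456 in Klf5 LKO, against 1177, 962 and 1627 in control. Every Klf5 LKO library lay below every control library, and the fitted difference was 2.99-fold (log2 -1.58, SE 0.20, adjusted p = 0.00447). The call held with each library left out in turn, with log2 fold changes from -1.76 to -1.38. Of 24 testable genes of heme-dependent proteins, 0 rose and 0 fell (median log2 fold change -0.057). The sterol demethylase Cyp51 had 5422 ± 132 in Klf5 LKO, against 5475 ± 1187 in control, and catalase, Cat, 5357 ± 402 in Klf5 LKO, against 5043 ± 248 in control (SD, n = 3 each).

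Over the 6 libraries, the genes whose log2 values ran closest to Fech among 10734 others with a mean of at least 100 were Ids, Saal1 and Fbxl8 (Pearson r = 0.991, 0.989 and 0.982). For Hmox1 they were Iws1, Gramd1b and Tdp1 (r = 0.995, 0.994 and 0.988). These are the highest of many correlations over 6 points that share depth and group, and they are given as a description. Between the 9 heme genes themselves, r ran from -0.75 (Cpox with Hmox1) to 0.81 (Alas1 with Blvrb), the second resting on Klf5 LKO 3, the highest library of both.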

How the data were processed

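RNA-seq of biliary epithelial cells was compared between 3 Klf5 LKO and 3 control libraries, grouped by sample title. Per the labels' protocols, 4 ng of RNA went through SMARTer and Nextera XT kits with 10 and then 7 PCR cycles, which adds noise to low genes. The build mm10 and the tools TopHat, Bowtie2 and DESeq2 are named per the submitters' processing notes. Which counter and annotation were used is not given in the sources used here. The authors deposited a signal per gene and library, reads divided by 1 size factor per library. Their deposited comparison table holds a mean signal, a log2 fold change and its error, a Wald score, and p-values with adjusted p-values; judged from the values, its fold changes are shrunken towards 0. Whole reads were recovered from 100% of the deposited values (tolerance 0.001).

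Limma 3.58.1 with trend, in R 4.3.3, was fitted to log2(value + 1), keeping 13490 genes whose mean reached 10, two-sided, with Benjamini-Hochberg adjustment over all of them and a threshold of 0.05. Adjusted p-values are from limma unless named. The pseudocount of 1 understates changes of low genes. Alternatives were edgeR 4.0.16, DESeq2 1.42.0 and voom on the recovered reads, TMM or upper quartile scaling, pseudocounts of 0.5 and 5, no filter, a minimum mean of 50, each library left out, and the replicate number as a block. Tests were checked on simulated data with changes larger than any seen for the 9 genes. That check does not show the power to find differences of their size. At these depths 3 reads, the limit behind a count of 0, equal 2.24 to 3.19 normalised counts in Klf5 LKO and 2.76 to 4.74 in control, for counting error only; without molecular identifiers, reads are not independent molecules. Named genes are the 9 members, Klf5, the called genes of each list (or else its 2 most abundant), and the 3 genes closest to Fech and to Hmox1. Members and lists were chosen with earlier results of these data known. Alas2, Hmox2 and Cd163 each stand in 2 lists and count in both. Flvcr1, Flvcr2, Epb42 and Ahsp were not analysed here, and some genes of the lists are not reported here but enter the list sums. Gene positions are from GENCODE M21 on GRCm38 (mm10), with 23350 of 24404 symbols found; promoters are from RefSeq.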

Additional observations from a re-analysis of the deposited data

How the results depend on the processing

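The count of 0 heme genes past the threshold held under all 16 alternatives. Of 144 alternative log2 fold changes of the 9 genes, 135 kept their sign and 9 turned, all of values near 0. Blvrb turned with edgeR and DESeq2 (0.085 and 0.089) and ranged from -0.42 to 0.24 with each library left out, Urod from -0.21 to 0.050, and Alas1 from -0.0043 to 0.11. Among the other named genes, Pgrmc1 turned with upper quartile scaling (-0.0067), edgeR (-0.00040) and voom (-0.0065) and ranged from -0.070 to 0.069 with each library left out. Cyp51 turned with edgeR (-0.016) and DESeq2 (-0.013) and ranged from -0.14 to 0.17, Fth1 from -0.032 to 0.18 and Hmox2 from -0.076 to 0.019. Over all tested genes 88 were called, against 335 with DESeq2, and from 14 (without control 2) to 105 (without Klf5 LKO 1) with a library left out. Counts of 49, 24 and 53 were reached without Klf5 LKO 3, control 1 and control 3. The cause was not tested. TMM and upper quartile scaling moved the median of all genes by less than 0.1.

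Deviations from the group means had r = 0.18, -0.012 and 0.11 between samples with the same replicate number 1, 2 and 3. Between unlike numbers, r ran from -0.20 (Klf5 LKO 1 with control 3) to 0.14 (Klf5 LKO 2 with control 3). The numbers were therefore not taken as pairs. The replicate block called 110 genes and 0 of the 9. Uros had the lowest counts of the 9, while Blvrb had the largest SE (0.31, against 0.25 for Uros). With 3 libraries a group, the intervals were wide enough that differences of the size seen for Ppox or Uros could not be told from 0.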

Other observations

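The genes outside the naming rule whose groups did not overlap in the iron and NRF2 target lists are given here, chosen after their values were seen. No overlap was found for 2 of 24 testable iron genes and 5 of 20 NRF2 target genes, Gsta4 included. The share was 15.6% of all tested genes. Hpx, the plasma heme scavenger hemopexin, had 220.2, 247 and 226 normalised read counts in Klf5 LKO, against 374, 318 and 373 in control, with no overlap (log2 fold change -0.62, SE 0.21, adjusted p = 0.289). Trf, which encodes transferrin, had 64154, 46519.9 and 46299.9 in Klf5 LKO, against 44799, 41945 and 28318 in control, with no overlap (log2 fold change 0.46, SE 0.19, adjusted p = 0.416). Neither passed with any tool run.

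Tkt, the transketolase of the pentose phosphate pathway, had 5539, 6926 and 6436 in Klf5 LKO, against 8701, 9073 and 8919 in control (log2 fold change -0.50, SE 0.12, adjusted p = 0.0979). Me1, the cytosolic malic enzyme, had 3491, 5154 and 4131 in Klf5 LKO, against 6503, 7001 and 5513 in control (log2 fold change -0.59, SE 0.15, adjusted p = 0.145). Both passed with DESeq2 (adjusted p = 0.00329 and 0.0147), and with none of the other 15 alternatives. Abcc4, an organic anion exporter, had 2843, 3149 and 2759.8 in Klf5 LKO, against 1742, 2293 and 2575 in control (log2 fold change 0.42, SE 0.15, adjusted p = 0.316). Ephx1, the microsomal epoxide hydrolase, had 1908, 1678 and 2229.6 in Klf5 LKO, against 1369, 1426 and 1522 in control (log2 fold change 0.42, SE 0.14, adjusted p = 0.271). Neither Abcc4 nor Ephx1 passed with limma, edgeR, DESeq2 or voom.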
